A study of Drosophila melanogaster with 6 samples.

Results

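The genes described here are 9 amino acid transporter genes of Drosophila melanogaster, mnd, JhI-21, gb, sbm, slif, path, CG1139, CG13384 and NAAT1. They were taken by a list of FlyBase symbols, drawn up with earlier results of these data known, and all 9 were found among the 15796 genes counted and passed the filter on low counts. RNA was sequenced from fat bodies dissected from late 3rd instar larvae of strain w1118. The 3 AKH overexpression libraries came from UAS-AKH/+; R4-Gal4/+ larvae, in which the fat body driver R4-Gal4 switches on a transgene for adipokinetic hormone (AKH). The 3 control libraries came from R4-Gal4/+ larvae, so both groups carry the driver and the controls lack the UAS-AKH transgene. Effects of the hormone and of the inserted transgene itself cannot be told apart in this design. Nothing in the labels ties the replicates to separate groups of animals, and the p-values cover the variation among the 3 libraries of each genotype, some of which may be technical.

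The fat body is the insect counterpart of liver and adipose tissue. It takes up amino acids from the haemolymph, stores them as larval serum proteins and senses them through the kinase complex TORC1, which sets larval growth. Amino acids enter through several transporter families. SLC7 light chains such as mnd, JhI-21, gb and sbm resemble mammalian exchangers that work as heterodimers with the heavy chain CD98hc. The SLC7 transporter slif carries cationic amino acids such as arginine, the proton-assisted SLC36-like carriers path, CG1139 and CG13384 act at the plasma membrane or on endosomes and lysosomes, and NAAT1 is a sodium-coupled SLC6 carrier. AKH is a glucagon-like peptide that the corpora cardiaca normally release and the fat body senses through the receptor AkhR.

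Of the 9 transporter genes, mnd and gb fell with AKH overexpression, 0 rose and 7 were not called. The share called over all 10705 tested genes was 3.77%, with 1.91% called lower and 1.87% higher. The fitted level with AKH overexpression was 0.612 of the control level for mnd and 0.586 for gb. DESeq2, which called 8.48% of the genes it tested, and limma-voom, which called 3.48%, called the same 2 transporter genes. A positive log2 fold change was found in 5 of the 9, against 52.4% of all tested genes. The libraries held 29803513 to 33150911 counts. Levels are CPM, counts scaled to a fixed library total on library sizes scaled by the trimmed mean of M-values (TMM), and log2 fold changes are AKH overexpression over control with their standard error (SE). A gene was called where its p from the quasi-likelihood test of edgeR, after Benjamini-Hochberg adjustment across every gene tested, was under 0.05. The groups did not overlap in 3 of the 9 genes (mnd and gb lower, path higher), against 24.3% of all tested genes (13.5% lower and 10.8% higher, as shares of all tested genes).

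Genotype and tissue were checked first. Akh, the overexpressed gene, was at 1854 ± 227 CPM in AKH overexpression and 2.18 ± 0.319 CPM in control libraries (SD, n = 3 each). The receptor gene AkhR averaged 39.8 CPM in AKH overexpression and 142 CPM in control libraries (log2 fold change -1.84, adjusted p = 0.0024 in edgeR). The gene w averaged 83.4 CPM in AKH overexpression and 41.4 CPM in control libraries (log2 fold change 1.01, adjusted p = 0.0042 in edgeR). AkhR and w were called in all 18 alternatives, and the causes of their differences were not tested. The 9 fat body markers found summed to 373195 to 446857 CPM in AKH overexpression and 341876 to 482972 CPM in control libraries, the larval serum protein genes among them. Markers of other tissues were also present. The 7 salivary gland markers, mostly glue genes, summed to 21701 to 33476 CPM in AKH overexpression and 26081 to 30084 CPM in control libraries. The 12 midgut markers summed to 3.93, 740 and 7.198 CPM in AKH replicates 1 to 3 and to 2750, 4072 and 1415 CPM in control replicates 1 to 3, with gammaTry at 0 counts in all 6. The 10 muscle markers summed to 92.4 to 111 CPM in AKH overexpression and 114 to 144 CPM in control libraries, and 2 of them fell. Among markers of other lists NimC1 of haemocytes (log2 fold change -2.48, adjusted p = 0.0116 in edgeR), Ncc69 of Malpighian tubules (-0.56, adjusted p = 0.0300) and the fat body lipid droplet gene Lsd-1 (-1.27, adjusted p = 0.0020) fell as well. Each was the 1 call in its list, and the list sums overlapped between the groups. The 7 haemocyte markers summed to 315 to 382 CPM in AKH overexpression and 330 to 431 CPM in control libraries. For the 7 tubule markers, 5 of them with a positive log2 fold change, the sums were 144 to 188 CPM and 105 to 272 CPM. The 9 testis markers summed to 23.1, 28.4 and 4.38 CPM in AKH replicates 1 to 3 and to 5.68, 32.95 and 6.71 CPM in control replicates 1 to 3. Libraries of both groups were thus high or low.

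**Figure D1:**
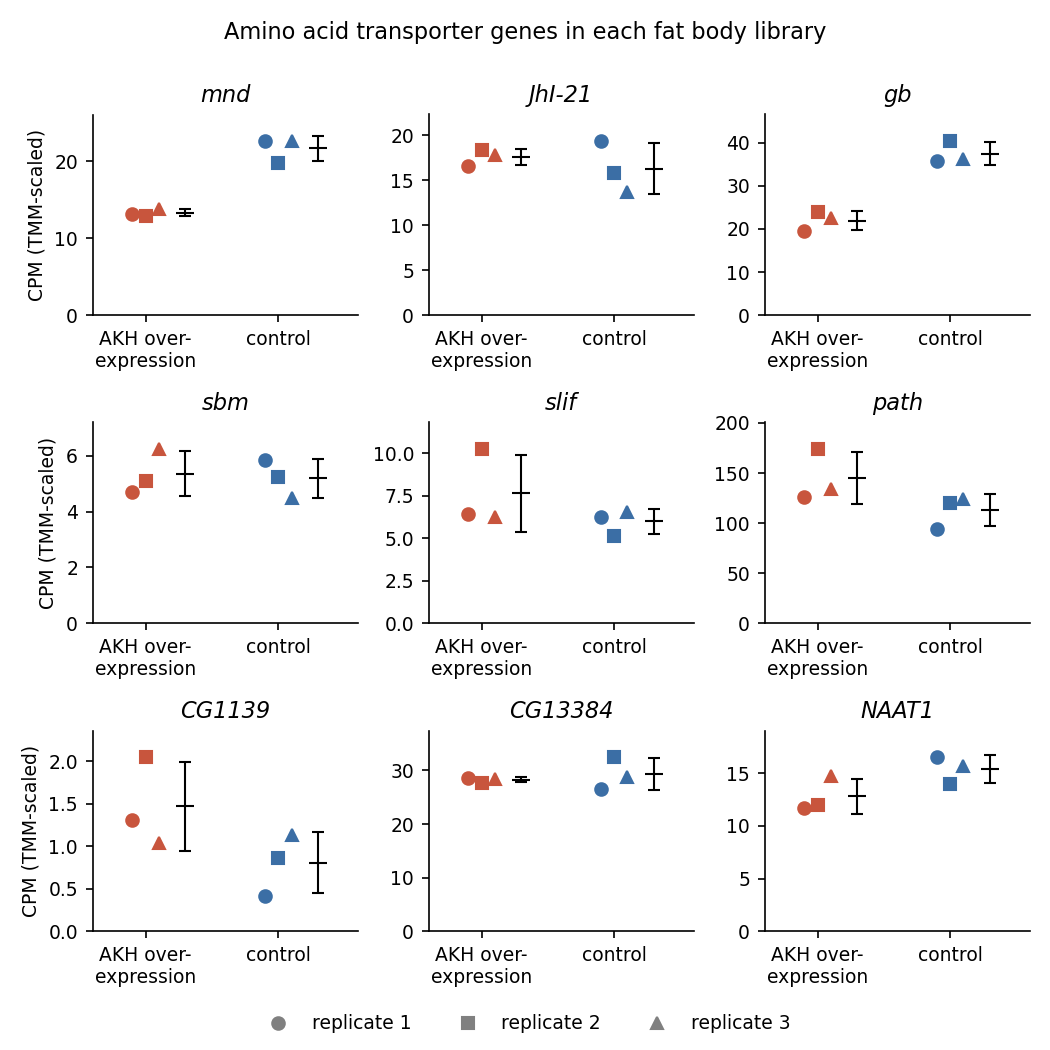
CPM of each of the 9 transporter genes (vertical axes, each from 0) in AKH overexpression libraries (left, red) and control libraries (right, blue); symbols mark the replicate and black bars the mean ± SD of 3 libraries. For mnd and gb all 3 AKH overexpression libraries lie below all 3 controls, for path they lie above, and for slif and CG1139 AKH replicate 2 is the highest of the 6.

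The light chain gene mnd (minidiscs, FBgn0002778) is named for the small imaginal discs of its mutants, and its product carries leucine. Its level was 13.1, 12.9 and 13.8 CPM in AKH overexpression replicates 1 to 3, against 22.6, 19.8 and 22.5 CPM in control replicates 1 to 3. The AKH overexpression libraries lay close together and under the lowest control. The log2 fold change was -0.71 (SE 0.08, 95% interval -0.91 to -0.51, adjusted p = 0.0091 in edgeR). An exact two-sided permutation test over the 6 libraries gave p = 0.1, the smallest that 3 against 3 allow. The call was lost without AKH replicate 1 (adjusted p = 0.0558) or control replicate 1 (adjusted p = 0.0574), and over all 18 alternatives the adjusted p was 6.7e-07 to 0.0574.

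The gene gb (genderblind, FBgn0039487) encodes a light chain of the cystine and glutamate exchanger type, known in fly glia for setting the glutamate level outside cells. Its level was 19.4, 23.8 and 22.5 CPM in AKH overexpression replicates 1 to 3, against 35.7, 40.4 and 36.1 CPM in control replicates 1 to 3. Again every AKH overexpression library lay below every control. The log2 fold change was -0.77 (SE 0.10, 95% interval -1.02 to -0.53, adjusted p = 0.0133 in edgeR), and the exact permutation p was 0.1. Leaving out AKH replicate 3 took the adjusted p past the threshold, to 0.0538, as did scaling by library size alone (0.0511) and limma on log2(RPKM + 1) (0.0553) or log2(RPKM + 0.1) (0.0524), and over all 18 alternatives the adjusted p was 7.06e-08 to 0.0553. An antisense RNA gene of the later BDGP6 annotation overlaps 32.8% of the exon bases of gb. No source used here states how strand was treated, so its reads cannot be separated from those of gb.

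Muscle and midgut marker sums, and the single markers NimC1, Ncc69 and Lsd-1, were lower in the group in which mnd and gb were lower. The sums of the haemocyte, tubule and fat body lists overlapped between the groups. The part of these markers in the result was not tested across the groups. Within the AKH overexpression group, midgut markers summed to 740 CPM in replicate 2 and to 3.93 and 7.198 CPM in replicates 1 and 3. There mnd was at 12.9 CPM in replicate 2 and at 13.1 and 13.8 CPM in replicates 1 and 3. For gb, replicate 2 was the highest of the group, at 23.8 CPM against 19.4 and 22.5 CPM. Control replicate 2 had the highest midgut sum, 4072 CPM. It also held the highest control level of gb, 40.4 CPM, and the lowest of mnd, 19.8 CPM. Whether midgut RNA had a part in these levels was not tested. Because gb is known from glia, glial markers were summed as well. The 7 genes added up to 205 to 208 CPM in AKH overexpression and 155 to 161 CPM in control libraries. The list was mixed, with loco called higher, Gs2 called lower and 5 not called, the glial factor repo among them. A positive log2 fold change was found in 5 of the 7. In CPM the groups did not overlap for loco, moody and nrv2, which were higher with AKH overexpression, and for Gs2, which was lower. DESeq2 called 4 of the 7 and limma-voom 3. The sum therefore does not stand for each glial marker, and the part of glia in the result was not tested. In bulk tissue, fewer cells of a type and less RNA per cell cannot be told apart.

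The other light chain genes were not called. JhI-21 (FBgn0028425), which was first found as a juvenile hormone inducible gene and carries leucine in the same brain cells as mnd, was at 16.6, 18.4 and 17.9 CPM in AKH overexpression replicates 1 to 3. In control replicates 1 to 3 it was at 19.4, 15.8 and 13.7 CPM. The controls spanned the whole AKH overexpression range, and the log2 fold change was 0.11 (95% interval -0.22 to 0.44, adjusted p = 0.741 in edgeR). The exons of JhI-21 overlap those of PLCXD, on the opposite strand, over 12.5% of their bases in the later annotation. The glial light chain gene sbm (sobremesa, FBgn0030574), needed for the timing of development, was at 4.72, 5.11 and 6.26 CPM in AKH overexpression replicates 1 to 3, against 5.87, 5.23 and 4.49 CPM in control replicates 1 to 3. The groups overlapped, with AKH replicate 3 the highest and control replicate 3 the lowest of the 6, and the log2 fold change was 0.04 (95% interval -0.34 to 0.42, adjusted p = 0.925 in edgeR).

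**Figure D2:**
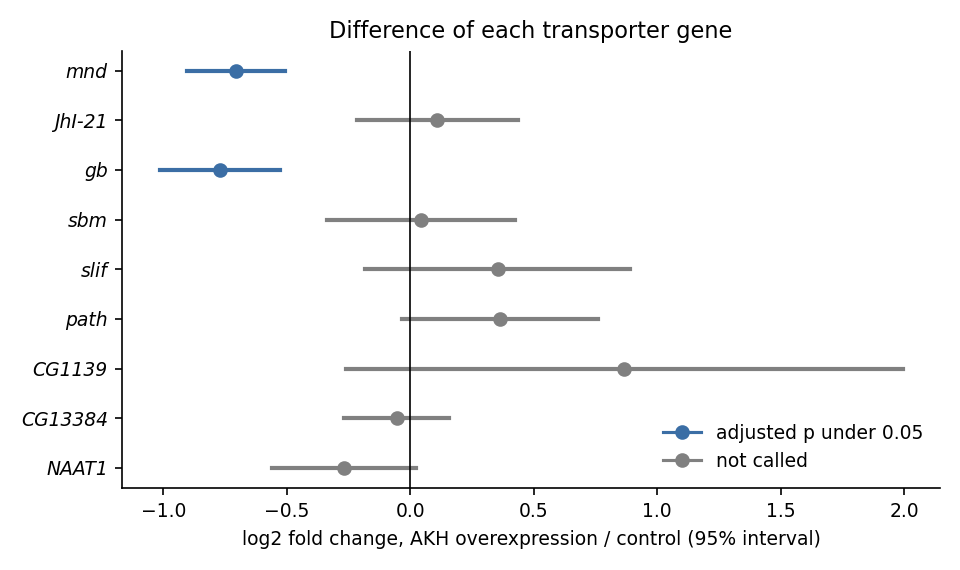
Log2 fold change of each transporter gene, AKH overexpression over control, with its 95% interval from edgeR (horizontal axis); blue marks an adjusted p under 0.05. The intervals of mnd and gb lie below 0, and those of the other 7 genes include 0, with CG1139 the widest at -0.26 to 1.99.

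Because JhI-21 and mnd were measured in the same libraries, their ratio does not depend on library scaling. The RPKM of mnd divided by that of JhI-21 was 0.709, 0.631 and 0.692 in AKH overexpression replicates 1 to 3, against 1.048, 1.12 and 1.48 in control replicates 1 to 3. RPKM, the authors' deposited unit, divides counts by gene length and library total and allows levels to be set side by side between genes. The RPKM of mnd was below that of JhI-21 in all 3 AKH overexpression libraries and above it in all 3 controls. The ratio of gb to CG13384 was 0.646, 0.820 and 0.753 in AKH overexpression replicates 1 to 3 and 1.28, 1.18 and 1.19 in control replicates 1 to 3, so these genes too stood in the other order. These pairs were picked after the order of levels was seen, and rest on the same libraries as the calls of mnd and gb, so no test is attached.

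The heavy chain gene CD98hc (FBgn0037533) was more abundant than any of the 4 light chain genes. It was at 49.0, 56.5 and 47.2 RPKM in AKH overexpression replicates 1 to 3 and 66.5, 70.7 and 46.7 RPKM in control replicates 1 to 3. In CPM the groups did not overlap, yet the gene was not called, with a log2 fold change of -0.27 (95% interval -0.51 to -0.03, adjusted p = 0.221 in edgeR). The summed RPKM of mnd, JhI-21, gb and sbm per RPKM of CD98hc was 0.448, 0.472 and 0.495 in AKH overexpression replicates 1 to 3, against 0.531, 0.502 and 0.582 in control replicates 1 to 3. With CG1607, a further light chain gene, added to the sum, the ratio was 0.760, 0.769 and 0.830 in AKH overexpression replicates 1 to 3. In control replicates 1 to 3 it was 0.845, 1.09 and 0.858. For both sums all 3 AKH overexpression values were below the lowest control. Both sums hold mnd and gb, so they restate those calls in part. The ratios of mnd and gb to CD98hc were lower and those of JhI-21 and sbm higher with AKH overexpression. JhI-21 and sbm overlapped between the groups in their own CPM, while the CPM of CD98hc, the gene they were divided by, was lower with AKH overexpression in every library. RNA ratios give no measure of assembled heterodimers.

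**Figure D3:**
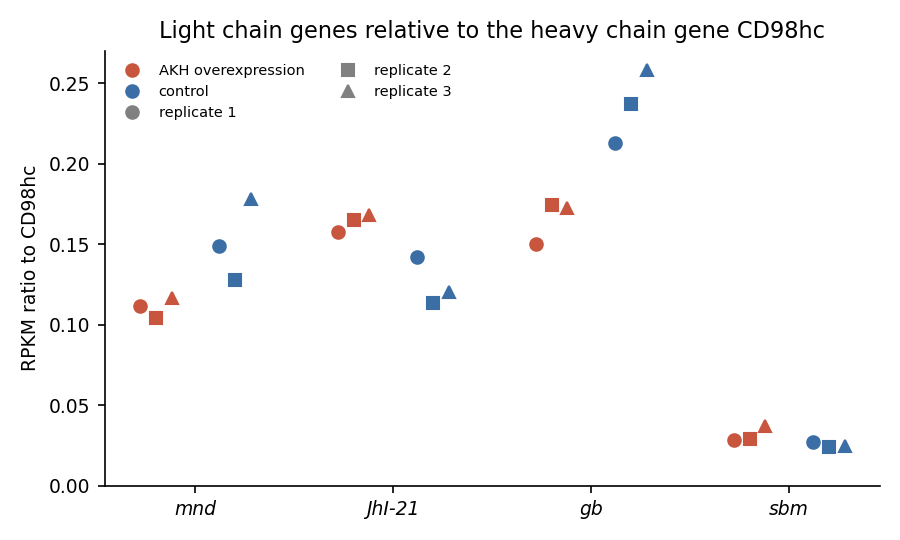
RPKM of each light chain gene divided by that of the heavy chain gene CD98hc in the same library (vertical axis, from 0), for AKH overexpression (left, red) and control (right, blue); symbols mark replicates. mnd averaged 0.111 with AKH overexpression and 0.152 in controls, gb 0.166 and 0.236, and JhI-21 0.164 and 0.125.

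The cationic transporter gene slif (slimfast, FBgn0037203) is the one whose loss in the fat body is known to lower TOR signalling and slow the growth of the larva. Its level was 6.45, 10.3 and 6.22 CPM in AKH overexpression replicates 1 to 3, against 6.26, 5.14 and 6.57 CPM in control replicates 1 to 3. AKH replicate 2 stood above the other 5 libraries, which overlapped. Its fold change on the log2 scale was 0.35 (95% interval -0.18 to 0.89, adjusted p = 0.477 in edgeR), and it was 0.08 without AKH replicate 2.

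The most abundant of the 9 genes was path (pathetic, FBgn0036007), an SLC36-like carrier known to promote growth in the fly together with TOR signalling. It was at 126, 174 and 134 CPM in AKH overexpression replicates 1 to 3, against 94.3, 120 and 124 CPM in control replicates 1 to 3. In CPM the AKH overexpression libraries were all above the controls, with the lowest of them at 126 CPM close to the highest control at 124 CPM. In RPKM the groups overlapped, at 44.6, 67.0 and 45.4 in AKH overexpression replicates 1 to 3 and 34.8, 46.2 and 38.7 in control replicates 1 to 3. The log2 fold change of 0.36 (95% interval -0.04 to 0.76) did not pass the threshold (adjusted p = 0.318 in edgeR), and it was 0.20 without AKH replicate 2.

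CG1139 (FBgn0035300, named acs in the current annotation), a close relative of path also linked to growth, was the least abundant. Its counts were 43, 68 and 30 in AKH overexpression replicates 1 to 3, against 13, 28 and 31 in control replicates 1 to 3. The exact 95% Poisson intervals, which cover counting error only, were 0.704 to 1.49 CPM for AKH replicate 3 and 0.769 to 1.61 CPM for control replicate 3, so these libraries cannot be separated at this depth. The log2 fold change was 0.87 (95% interval -0.26 to 1.99, adjusted p = 0.404 in edgeR). CG13384 (FBgn0032036), another gene of the same family, was at 28.6, 27.7 and 28.4 CPM in AKH overexpression replicates 1 to 3, against 26.6, 32.6 and 28.9 CPM in control replicates 1 to 3. The controls spanned the AKH overexpression range, with a log2 fold change of -0.05 (95% interval -0.27 to 0.16, adjusted p = 0.809 in edgeR).

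NAAT1 (FBgn0029762) encodes a carrier of essential amino acids best known from the midgut, where it also takes up D-isomers. It was at 11.7, 11.97 and 14.7 CPM in AKH overexpression replicates 1 to 3, against 16.6, 13.998 and 15.7 CPM in control replicates 1 to 3. AKH replicate 3 lay within the control range. For NAAT1 the log2 fold change was -0.27 (95% interval -0.56 to 0.02, adjusted p = 0.315 in edgeR). Midgut markers were lower in the same group, and their part in this difference was not tested.

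Per gene length, path led in both groups, at 52.3 ± 12.7 RPKM with AKH overexpression and 39.9 ± 5.80 RPKM in controls (SD, n = 3 each). It was above 90.0% of tested genes with AKH overexpression and 87.7% in controls. In AKH overexpression libraries CG13384 was second at 11.4 ± 0.595 RPKM, then gb (8.46 ± 1.27), JhI-21 (8.33 ± 0.854), mnd (5.62 ± 0.219), NAAT1 (5.16 ± 0.479), slif (2.95 ± 1.08), sbm (1.59 ± 0.190) and CG1139 (0.952 ± 0.405). In this order the ranges of gb and JhI-21, of mnd and NAAT1, and of sbm and CG1139 overlapped between neighbours. In controls gb was second at 14.3 ± 2.35 RPKM, then CG13384 (11.8 ± 2.11), mnd (9.08 ± 0.797), JhI-21 (7.71 ± 1.93), NAAT1 (6.17 ± 0.709), slif (2.25 ± 0.186), sbm (1.55 ± 0.340) and CG1139 (0.499 ± 0.194). Here gb and CG13384, mnd and JhI-21, and JhI-21 and NAAT1 overlapped. Places 1 and 6 to 9 were held by the same genes in both groups, and only gb, CG13384, mnd and JhI-21 changed places.

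**Figure D4:**
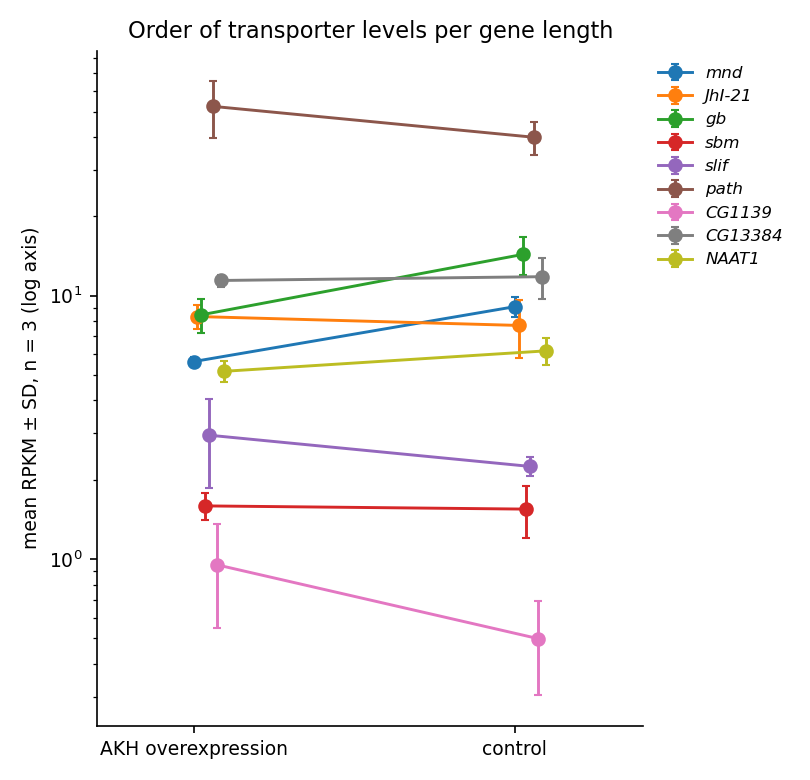
Mean RPKM ± SD of 3 libraries for each transporter gene (vertical log axis) with AKH overexpression (left) and in controls (right), joined per gene. The line of gb crosses that of CG13384 and the line of mnd crosses that of JhI-21, while path stays on top and slif, sbm and CG1139 stay lowest.

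The summed RPKM of the 9 genes was 85.8, 116 and 88.1 in AKH overexpression replicates 1 to 3 and 90.9, 105 and 84.3 in control replicates 1 to 3, so the groups overlapped. The share of path in that sum was 51.9%, 57.5% and 51.5% in AKH overexpression replicates 1 to 3, against 38.3%, 44.1% and 45.9% in control replicates 1 to 3. The share of gb was 8.58%, 8.46% and 9.26% with AKH overexpression and 15.6%, 16.0% and 14.3% in controls. For mnd it was 6.39%, 5.04% and 6.26% with AKH overexpression and 10.9%, 8.63% and 9.86% in controls. These 3 shares did not overlap between the groups, and those of JhI-21, sbm, slif, CG1139, CG13384 and NAAT1 did. The lower shares of mnd and gb restate their calls. Shares of the same sum depend on each other, so the higher share of path follows in part from the lower levels of mnd and gb. The RPKM of path itself overlapped between the groups.

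The remaining transporters of these families gave 1 call. Of 7 other SLC7 genes with CD98hc, 0 were called by edgeR, DESeq2 or limma-voom, and 1 had an unadjusted p under 0.05, where 18.0% of all tested genes did. Their median log2 fold change was 0.11, against 0.02 over all tested genes. The most abundant was CG7255, a gene of the cationic group like slif, at 303, 233 and 347 RPKM in AKH overexpression replicates 1 to 3 and 315, 307 and 376 RPKM in control replicates 1 to 3. The RPKM of slif was 0.00645 to 0.0181 of that of CG7255 in AKH overexpression and 0.00578 to 0.00781 of it in control libraries, and CG7255 was not called (log2 fold change -0.20, adjusted p = 0.744 in edgeR). The light chain gene CG1607 was at 46.6, 47.0 and 50.5 CPM with AKH overexpression and 60.7, 116 and 44.7 CPM in controls, where control replicate 2 alone was high.

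Of 6 other tested SLC36-like genes 0 were called by edgeR, DESeq2 or limma-voom, and 2 had an unadjusted p under 0.05. Their median log2 fold change was 0.55, against 0.02 over all tested genes. The highest by CPM, which takes no account of gene length, was CG16700 at 6.544, 4.78 and 3.83 CPM in AKH overexpression replicates 1 to 3 and 2.61, 3.75 and 3.54 CPM in control replicates 1 to 3 (adjusted p = 0.258 in edgeR). CG7888 was at 1.70, 2.30 and 2.26 CPM in AKH overexpression replicates 1 to 3 and 1.23, 0.805 and 1.28 CPM in control replicates 1 to 3 (adjusted p = 0.159 in edgeR). For both genes the groups did not overlap, the AKH overexpression libraries being higher. CG4991 was at 8.19, 3.29 and 2.89 CPM with AKH overexpression and 1.23, 3.25 and 4.93 CPM in controls, which overlapped, and per gene length it exceeded CG16700, with 2.48 against 2.09 RPKM on average with AKH overexpression and 1.57 against 1.35 RPKM in controls.

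Of 16 other tested SLC6 genes edgeR and limma-voom called 0, DESeq2 called 2, and 3 had an unadjusted p under 0.05. The most abundant, CG13795, was at 214 CPM on average with AKH overexpression and 210 CPM in controls (log2 fold change 0.03, adjusted p = 0.954 in edgeR). DESeq2 called the GABA transporter gene Gat higher (log2 fold change 0.68, adjusted p = 0.0479) and CG8850, whose groups overlapped, lower (-2.46, adjusted p = 0.0021). Gat had 71.4, 55.2 and 69.3 CPM with AKH overexpression, against 44.7, 27.7 and 48.7 CPM in controls, and an adjusted p of 0.174 in edgeR.

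Among 9 tested glutamate, vesicular, peptide and lysosomal transporter genes, 1 fell and 0 rose. This was Eaat1 (FBgn0026439), which takes up glutamate at the plasma membrane. Eaat1 was at 41.6, 41.7 and 51.0 CPM in AKH overexpression replicates 1 to 3, against 96.5, 108 and 152 CPM in control replicates 1 to 3. Its log2 fold change was -1.41 (SE 0.19, adjusted p = 0.0152 in edgeR), and the call was lost without AKH replicate 1 (adjusted p = 0.0862) or 2 (adjusted p = 0.0666), with 5.08e-10 to 0.0862 over all 18 alternatives. DESeq2 also called CG9444, listed with the peptide transporters, higher (log2 fold change 0.56, adjusted p = 0.0056), which edgeR did not (adjusted p = 0.105).

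**Figure D5:**
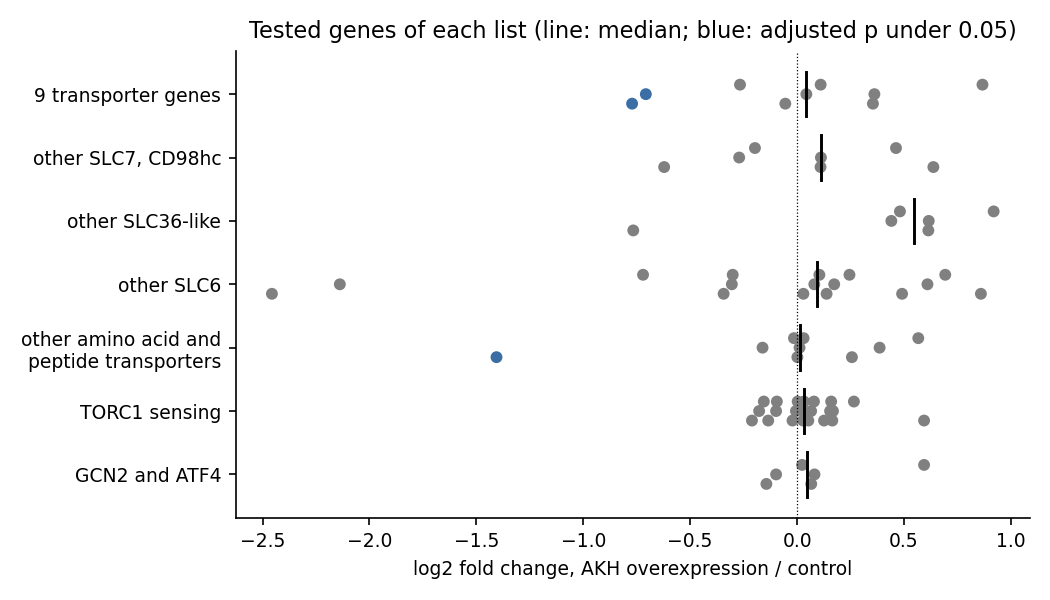
Log2 fold changes, AKH overexpression over control (horizontal axis), of all tested genes in each list (points, spread vertically for legibility), with the list median as a black line and genes of adjusted p under 0.05 in blue. The 3 blue points are gb, mnd and Eaat1, and the medians of the 7 lists run between 0.01 and 0.55.

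The tested genes that read amino acid supply inside the cell gave no call. S6k of the first list below and AsnS of the second were not found in the count table, and Lamtor2 had 0 counts in all libraries. Of 22 tested genes of TORC1, its inputs and its outputs 0 were called by edgeR, DESeq2 or limma-voom, and 3 had an unadjusted p under 0.05. Their median log2 fold change was 0.03. Thor, the translation inhibitor 4E-BP, was the most abundant at 629, 586 and 351 CPM in AKH overexpression replicates 1 to 3 and 276, 398 and 364 CPM in control replicates 1 to 3. AKH replicates 1 and 2 were above all controls and replicate 3 within their range (log2 fold change 0.59, adjusted p = 0.287 in edgeR). Of 6 tested genes around the kinases Gcn2 and PEK and their factor crc (ATF4), which share Sesn and Thor with the previous list, 0 were called by the same 3 tools and 0 had an unadjusted p under 0.05. By CPM, which takes no account of gene length, crc led this list, at 626 CPM on average with AKH overexpression and 598 CPM in controls (adjusted p = 0.820 in edgeR). These are RNA levels and carry no information on kinase activity.

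For mnd and gb, the genes with the most similar profile over the 6 libraries were found by the Euclidean distance between log2 CPM values centred on each gene's mean, among 6835 other genes of at least 5 CPM. For mnd they were Sply, the sphingosine-1-phosphate lyase (distance 0.11), mip40, a subunit of a Myb-containing repressor complex (0.15), and sta, a ribosomal protein gene (0.20). For gb they were Gs2, a glutamine synthetase (0.14), Ac76E, an adenylyl cyclase (0.18), and FBgn0262684, for which the reference names give no symbol (0.20). All 6 were called lower, which follows from the way they were chosen. Of the 18 alternatives, 16 kept the call of Sply, 17 that of mip40 and 10 that of sta. For Gs2, Ac76E and FBgn0262684 the call held in 9, 11 and 15. In the ranking from gb mnd stood at place 22, and in that from mnd gb stood at place 101. With 6 libraries in 2 groups, closeness of this kind mostly restates the group difference.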

How the data were processed

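The authors deposited raw read counts per gene and RPKM, reads scaled to gene length and library total, for 6 larval fat body libraries. Trizol extraction and the Illumina TruSeq chemistry are stated per the labels' protocols. Build BDGP5 and the tools DESeq 1.10.1, HTSeq 0.5.4p3, TopHat2 2.0.9 and Bowtie2 2.0.6 are named in the submitters' processing notes, with no role, strand setting or filter. Gene overlaps come from a newer annotation (BDGP6), so coordinates are left out, and no sequences were used.

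The test was run in edgeR 4.0.16 under R 4.3.3 (default expression filter, TMM scaling, quasi-likelihood F test of the group, no covariate, 10705 genes tested). The SE is the log2 fold change divided by the square root of F. A count of 0 would allow up to 3 counts, 0.0907 to 0.109 CPM per library. The chi-square statistic per degree of freedom was 36.4 or more between libraries of a group, so none repeats another within sampling noise. Libraries are named by the replicate number in their titles. Alternatives covered scaling, DESeq2 1.42.0, limma-voom (limma 3.58.1), filters, limma on log2(RPKM + 1) and log2(RPKM + 0.1), a replicate block and leaving out each library; leaving out replicate 2 of both groups was added after the data were seen. The edgeR script was tested on simulated counts. Figures used matplotlib 3.10.9.

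The members and gene lists were chosen with earlier results of these data known. Of 173 list names 162 were found in the count table, 1 after an alias in the SLC36 list was corrected. Beside the 9 members, the genes named are up to 4 called genes of each list by smallest p, or its most abundant tested gene by CPM, and the 3 nearest profiles of each called member. Akh, AkhR and w were named to check the genotype. CD98hc, CG1607, CG7888, CG4991, Gat, CG8850, CG9444, moody and nrv2 were named outside this rule, after their values were seen.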

Additional observations from a re-analysis of the deposited data

How the results depend on the processing

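Over the 18 alternatives mnd and gb stayed negative, with log2 fold changes of -0.79 to -0.60 and -0.84 to -0.69. Of the 9 transporter genes 1 was called with library size alone and with limma on log2(RPKM + 1) or log2(RPKM + 0.1), each time without gb (adjusted p = 0.0511, 0.0553 and 0.0524), and 1 to 2 when any 1 library was left out. Over all genes, 404 were called; DESeq2 called 989, leaving out 1 library 144 to 479, and leaving out replicate 2 of both groups 227. That last fit sets midgut marker sums of 3.93 and 7.198 CPM with AKH overexpression against 2750 and 1415 CPM in controls, so it is no test of midgut RNA. In the other transporter, TORC1 and Gcn2 lists, where Eaat1 was the 1 call, DESeq2 called 4, the fits without 1 library 0 to 1, and that without replicate 2 of both groups 0. Deviations from the group means correlated between same-numbered libraries for replicates 2 and 3 (Pearson r 0.600 and 0.502) but not for replicate 1 (-0.369), so the numbers are taken only as names. A fit with the replicate number as a block called 430 genes, 2 of the 9 transporter genes and 3 list genes, adding Gat and CG8850. Among the genes named, signs turned only in ones that were not called. When 1 library was left out, the log2 fold change of sbm ran from -0.084 to 0.13, of CG13384 from -0.13 to 0.0093, of CG7255 from -0.38 to 0.012, of CG4991 from -0.017 to 1.097 and of CG13795 from -0.11 to 0.23; without replicate 2 of both groups it was -0.018 for slif, 0.039 for CG13384 and -0.014 for CG13795. The causes were not tested. Dividing RPKM by the TMM factors left the order of levels in both groups as it was. Counting error is widest for CG1139, with 13 to 68 counts a library, and its libraries also differed within each group beyond it.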

Other observations

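Of the 7 glial markers 1 rose and 1 fell. The higher one was loco, at 81.4, 77.8 and 73.2 CPM in AKH overexpression replicates 1 to 3, against 38.6, 40.1 and 39.3 CPM in control replicates 1 to 3 (adjusted p = 0.0016 in edgeR). The lower one was Gs2, which is also the gene nearest to gb in profile, at 19.2 ± 2.39 CPM with AKH overexpression and 31.2 ± 3.59 CPM in controls (SD, n = 3 each; adjusted p = 0.0378 in edgeR), and its call held in 1 of the 6 fits without 1 library. The glial factor repo was not called, at 2.40, 4.35 and 4.31 CPM with AKH overexpression and 3.58, 2.85 and 2.66 CPM in controls. Higher in all 3 AKH overexpression libraries, but not called, were moody (adjusted p = 0.0512 in edgeR) and nrv2 (adjusted p = 0.0727 in edgeR).

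AKH replicate 2 held the highest level of 3 of the 9 transporter genes, slif, path and CG1139. It also held 740 CPM of midgut markers, against 3.93 and 7.198 CPM in AKH replicates 1 and 3. Control replicates 1 to 3 held more midgut marker RNA, 2750, 4072 and 1415 CPM, and less of all 3 genes than AKH replicate 2. Whether midgut RNA and the levels of these genes go together was not tested.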
